A study of Mus musculus with 55 samples.

Results

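The 10 autophagy genes described here, Wdfy3, Sqstm1, Ulk1, Becn1, Atg5, Gabarap, Gabarapl1, Gabarapl2, Map1lc3a and Map1lc3b, were taken by symbol from the 43432 genes of a count table of mouse fat. They were chosen with earlier results of the same libraries known: Wdfy3 was selected on its difference between Q175 and Q20 and on its slope over CAG length, and Gabarap on its slope in males. Those values are therefore given as a description, without a test. All 10 passed the filter on low counts that left 21113 genes to test.

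Gonadal white adipose tissue of C57BL/6 mice aged 6 months was taken as bulk RNA into 55 libraries. Animals were wild type (WT) or carried 1 copy of a knock-in Htt allele, named Q20, Q80, Q92, Q111, Q140 or Q175 for its number of CAG repeats. Htt encodes huntingtin, the protein altered in Huntington's disease, and the Q20 allele lies in the unexpanded range. No group received a treatment, and 13 of the 14 combinations of genotype with sex had 4 libraries each, WT females having 3. WT and Q20 animals shared housing while every other genotype was housed with its own, so housing and genotype cannot be told apart in comparisons of Q80 to Q175 with WT or Q20. The label numbers of the libraries also set groups apart: all 15 WT and Q175 libraries carry numbers from 372719 to 372733, 39 of the other 40 carry lower numbers and Q20 female replicate 2 a higher one. Q175 against Q20, Q20 against WT and the slopes over CAG length therefore cross between number ranges, and Q175 against WT does not. The WT and Q175 labels also hold a code shared by all libraries of the same genotype and sex and by no other group. Its meaning is not stated, and within each sex it cannot be told apart from genotype in Q175 against WT.

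Autophagy encloses part of the cytoplasm in a double membrane, the autophagosome, and delivers it to the lysosome. A kinase complex around Ulk1 starts the process, and a lipid kinase complex that holds Becn1 marks the membrane where it begins. Small ubiquitin-like proteins of the Atg8 family, the Gabarap and Map1lc3 (LC3) proteins, are then joined to a membrane lipid by an enzyme complex that contains Atg5. Receptors such as Sqstm1 (p62) bind ubiquitinated cargo on one side and Atg8 proteins on the other. Wdfy3, also called Alfy, is a very large BEACH domain scaffold that joins aggregated protein and p62 to the growing membrane, and it has been studied for the clearance of huntingtin aggregates. In fat, autophagy is known for its part in adipocyte differentiation and in the loss of mitochondria from beige adipocytes.

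The 5 Atg8 family transcripts are shown by the last 45 bases of their coding sequence, stop codon included, because this end carries the step that sets them apart from ordinary ubiquitin-like proteins. Atg4 proteases cut behind a glycine near the end, and that glycine is then joined to the lipid. The glycine codon is in capitals, and the sequences are those of GENCODE M21 transcripts, written 5′ to 3′ on the coding strand.
Gabarap: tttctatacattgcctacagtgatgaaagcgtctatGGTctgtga
Gabarapl1: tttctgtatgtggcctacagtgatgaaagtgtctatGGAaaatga
Gabarapl2: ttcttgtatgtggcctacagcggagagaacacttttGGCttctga
Map1lc3a: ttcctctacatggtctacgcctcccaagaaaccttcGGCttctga
Map1lc3b: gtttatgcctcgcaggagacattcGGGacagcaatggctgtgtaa
The glycine was codon 116 in the 3 Gabarap genes and codon 120 in Map1lc3a and Map1lc3b. A single codon followed it before the stop in all of them but Map1lc3b, where 5 did. Aligned coding sequences were 74.6% identical between Gabarap and Gabarapl1 and 76.0% between Map1lc3a and Map1lc3b, with 51.0% to 63.5% in the other pairs. The genes lie on chromosome 11 (Gabarap), 6 (Gabarapl1), 8 (Gabarapl2 and Map1lc3b) and 2 (Map1lc3a) in that annotation. No pair shared a run of more than 17 bases. Stretches of 50 bases were shared with other annotated genes in 17.0% of the Gabarapl2 transcript, most often with Gm3724, and in 13.4% of the Map1lc3b transcript, most often with Gm6055. Counts of these genes are uncertain to that extent, and the share was 0.2% for Becn1 and 0.0% for the other 7.

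Library depth was 35094442 to 51363637 counts, with a median of 42009365. Levels are given in CPM, the counts of a gene relative to its library's TMM-normalized total, with the SD between libraries. Differences are log2 values ± SE from edgeR's quasi-likelihood test, and a gene was called where its p, adjusted by Benjamini and Hochberg over all tested genes, was under 0.05. Each library has its own number and a further code beginning with L, called the L code here, whose meaning the labels do not state. These p-values therefore measure the spread between libraries, which may be technical. The L code was spread unevenly between WT and Q175 libraries. With it as a factor 417 of 21113 genes were called in Q175 against WT, against 2204 without it. The part of the L code in that comparison was not tested further. Htt, the targeted gene, had 66.1 ± 9.08 CPM in WT (n = 7), 58.5 in Q20, 45.5 in Q140 and 57.4 in Q175 (n = 8 each), which includes reads of the normal allele and does not check the repeat length. In 2 Q140 libraries the sex genes went against the label: the library labelled female replicate 1 had 0.515 CPM of Xist and 76.6 CPM of Ddx3y, and the library labelled male replicate 4 had 711.9 CPM of Xist and 0.0470 CPM of Ddx3y. The adipocyte genes Adipoq (453.7 to 5099 CPM) and Plin1 (133.1 to 1323 CPM) were present in every library. In 14 libraries the sum of 10 epididymis and testis markers reached 100 CPM, among them all 4 Q175 males and no WT library.

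Wdfy3 was higher in Q175 fat than in WT fat, and the Atg8 genes Gabarap and Map1lc3a were lower. The kinase Ulk1, the scaffold Becn1, the conjugation gene Atg5, the receptor Sqstm1 and the other Atg8 genes were not called in this comparison. With 1 of 10 genes higher and 2 lower, the 10 genes had 3 calls, and over all tested genes 10.4% were called in this comparison, 3.34% higher and 7.10% lower. The median difference of the 10 genes was -0.09, beside 0.01 over all tested genes. The Q175 libraries in this comparison are the same ones on which Wdfy3 and Gabarap were selected, so it is not an independent test of them.

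In Q175 Wdfy3 had 102.0, 88.9, 80.3 and 96.3 CPM in the 4 females and 82.8, 92.6, 104.5 and 104.0 CPM in the 4 males. In WT it had 62.8, 74.0 and 65.5 CPM in the 3 females and 79.7, 63.9, 63.2 and 80.3 CPM in the 4 males. The lowest Q175 library and the highest WT library stood at the same printed value, and within each sex the groups did not overlap. All tested genes were fully higher without overlap in 10.7% of cases in females and 7.81% in males. The difference was 0.43 ± 0.09, a 1.35-fold higher level (adjusted p = 0.00150, edgeR).

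Gabarap had the opposite direction. In Q175 it had 218.3, 228.3, 231.7 and 220.4 CPM in females and 229.3, 211.8, 205.9 and 225.9 CPM in males. In WT it had 312.3, 262.5 and 300.5 CPM in females and 280.7, 286.3, 294.3 and 269.3 CPM in males. All 8 Q175 libraries lay under all 7 WT libraries, a full separation downward that 2.84% of all tested genes showed. Gabarap fell by 0.38 ± 0.09 on the log2 scale, to 0.771 of the WT level (adjusted p = 0.00392, edgeR).

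**Figure D1:**
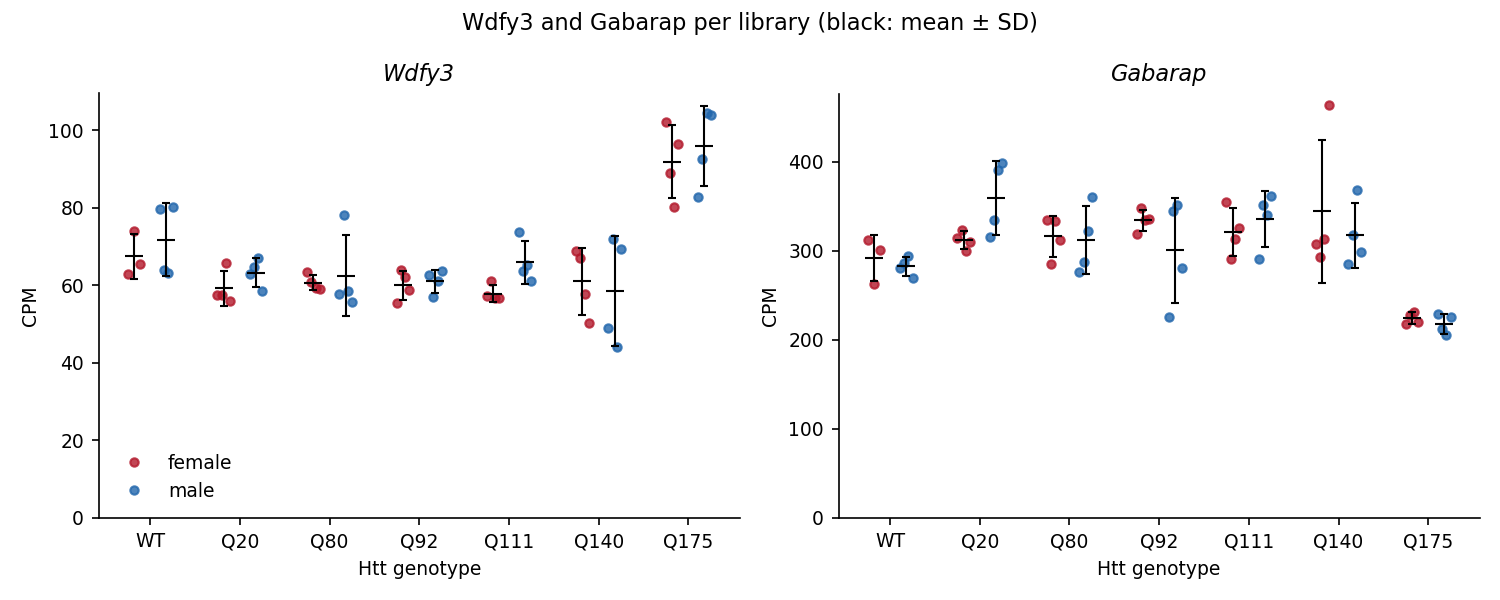
Wdfy3 and Gabarap in CPM (vertical axes, from 0) in each library, by Htt genotype and sex, with black marks for the mean ± SD of each group of 3 or 4 libraries. The Q175 libraries stand at 80.3 to 104.5 CPM for Wdfy3 and at 205.9 to 231.7 CPM for Gabarap, while the means of Q20 to Q140 lie close together, with single libraries from 44.0 to 78.0 and from 225.7 to 463.9 CPM.

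Map1lc3a, an LC3 gene, carried the third call. Its level was 87.9, 84.2, 86.3 and 79.5 CPM in Q175 females and 107.5, 83.1, 81.1 and 77.1 CPM in Q175 males. The WT females had 109.6, 83.9 and 97.3 CPM and the WT males 127.4, 126.1, 165.7 and 120.1 CPM. The groups overlapped in females and not in males, where 11.2% of all tested genes were fully lower. Among males Becn1, Gabarap, Gabarapl1 and Map1lc3b were fully lower in Q175 as well, and Wdfy3 fully higher. For Map1lc3a the difference was -0.41 ± 0.14 (adjusted p = 0.0487, edgeR). The call was lost in 12 of 15 fits that left out 1 library, with adjusted p up to 0.172. It held without Q175 male replicate 1, WT male replicate 1 or WT male replicate 4. It was also lost with RLE scaling (adjusted p = 0.0548), upper-quartile scaling (0.0626), no filter (0.109) and the replicate block (0.0533). The L code as a factor (adjusted p = 0.117), structural RNAs left out (0.0759) and the 2 Q140 libraries left out (0.0533) ended it too. With the epididymis-rich libraries left out, in a fit chosen after seeing the data, no Q175 male remained and Q175 females stood against WT of both sexes. There Map1lc3a stood at -0.20 ± 0.16 (adjusted p = 0.477). Those markers summed to 490.1 to 2843 CPM in Q175 males and 0.555 to 25.7 CPM in WT males, and to at most 4.61 CPM in females of either group. Of the 10 markers 2 were called higher in Q175, and 2 were at 0 in all WT males. In the same fit Wdfy3 kept 0.46 ± 0.08 (adjusted p = 0.00190) and Gabarap -0.30 ± 0.10 (adjusted p = 0.0458).

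The other 7 genes were not called between Q175 and WT. Gabarapl1 stood at -0.22 ± 0.12 (adjusted p = 0.243), Map1lc3b at -0.20 ± 0.15 and Gabarapl2 at -0.08 ± 0.08. Sqstm1, with 253.4 ± 10.4 CPM in Q175 and 250.2 ± 35.6 CPM in WT, stood at 0.01 ± 0.09. Becn1 stood at -0.10 ± 0.09, Ulk1 at -0.07 ± 0.08 and Atg5 at -0.03 ± 0.08. Limma voom with quality weights called 6 of the 10, adding Gabarapl1, Map1lc3b and Becn1 as lower. That tool called 8416 of 21113 genes in all, against 2204 by edgeR.

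Within each sex fewer calls were made. In females none of the 10 passed, where 0.199% of all tested genes were called, and 2 had an unadjusted p under 0.05: Wdfy3 at 0.45 ± 0.13 (adjusted p = 0.0984, edgeR) and Gabarap at -0.38 ± 0.13 (adjusted p = 0.152). DESeq2 called 1 of the 10 in females and voom 2. In males Wdfy3 was the 1 gene called, at 0.42 ± 0.12 (adjusted p = 0.0491), beside 1.76% of all tested genes. That call held in 1 of 8 fits that left out a library, the one without WT male replicate 1 (adjusted p = 0.0205). Gabarap stood at -0.37 ± 0.12 and Map1lc3a at -0.63 ± 0.19 there (adjusted p = 0.0758 and 0.0688). The difference between the sexes was called for none of the 10, beside 0.0284% of all tested genes, and none had an unadjusted p under 0.05. For Wdfy3 it was -0.03 ± 0.17, for Gabarap 0.00 ± 0.17 and for Map1lc3a -0.43 ± 0.28.

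Some macrophage and progenitor markers were called higher in Q175 against WT, a comparison in which 3.34% of all tested genes were. Of 7 macrophage markers 4 rose against WT, Mrc1 by 0.91, Csf1r by 0.83, Cd163 by 1.11 and Adgre1 by 0.96, and the list summed to 942.7 to 1098 CPM in Q175 and 369.4 to 1131 CPM in WT. Of 6 progenitor markers 4 rose, Fbn1 by 1.44, Pi16 by 1.32, Dpp4 by 1.20 and Pdgfra by 0.83. The progenitor list summed to 685.8 to 967.7 CPM in Q175 and 314.7 to 812.1 CPM in WT. Both sums overlapped among males and neither did among females. The macrophage sum was 1028 to 1069 CPM in Q175 females and 369.4 to 647.5 in WT females. The progenitor sum was 867.3 to 967.7 and 314.7 to 550.7 CPM. The 8 adipocyte markers, none of them called, summed to 15549 to 24615 CPM in Q175 and 21200 to 30297 CPM in WT, with no overlap among males. None of these markers was at 0 in any whole group. Against Q20 fewer of them were called higher, namely Mrc1 (0.64), Pdgfra (0.67) and Fbn1 (0.82). Their part in the Wdfy3 and Gabarap results was not tested, and in bulk tissue fewer cells of a type and less RNA per cell cannot be told apart.

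Transcript length moved with the difference between Q175 and the controls across all genes. The length implied by the ratio of counts to FPKM was 11039 nt for Wdfy3, longer than 99.5% of tested genes, and 5213 nt for Ulk1. It was 859 nt for Map1lc3a, 1075 nt for Gabarap, 1273 nt for Gabarapl2, 1765 nt for Gabarapl1 and 1839 nt for Map1lc3b. Sqstm1, Becn1 and Atg5 lay between, at 2026, 2081 and 2352 nt. With all tested genes divided into 10 bins by length, the median difference between Q175 and WT ran from -0.21 in the shortest bin to 0.20 in the longest. Wdfy3, at 0.43, belonged to the longest bin. Gabarap, at -0.38, belonged to the second bin, whose median was -0.22. Ulk1, in the longest bin as well, lay at -0.07.

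Both ways of removing the trend over length ended the calls of all 3 genes between Q175 and WT. With a least-squares trend taken out of each library, Wdfy3 stood at 0.04 ± 0.11 (adjusted p = 0.882), Gabarap at -0.37 ± 0.19 (adjusted p = 0.250) and Map1lc3a at -0.39 ± 0.22 (adjusted p = 0.283). That correction moved the median of all genes to -0.15 and widened the standard errors. A second version, which followed the medians of 50 length bins and was added after the first was seen, left the median of all genes at -0.01. With it Wdfy3 stood at 0.20 ± 0.07 (adjusted p = 0.0568), Gabarap at -0.21 ± 0.09 (adjusted p = 0.133) and Map1lc3a at -0.23 ± 0.13 (adjusted p = 0.323). On log2 of the deposited FPKM plus 0.1, all tested genes had a median of 0.17, with 2032 called higher and 330 lower, whereas on counts 1498 of the 2204 calls were lower. There Wdfy3 was 0.77 ± 0.14 and Gabarap -0.24 ± 0.08, both called, and Map1lc3a was -0.22 ± 0.13 and not called.

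**Figure D2:**
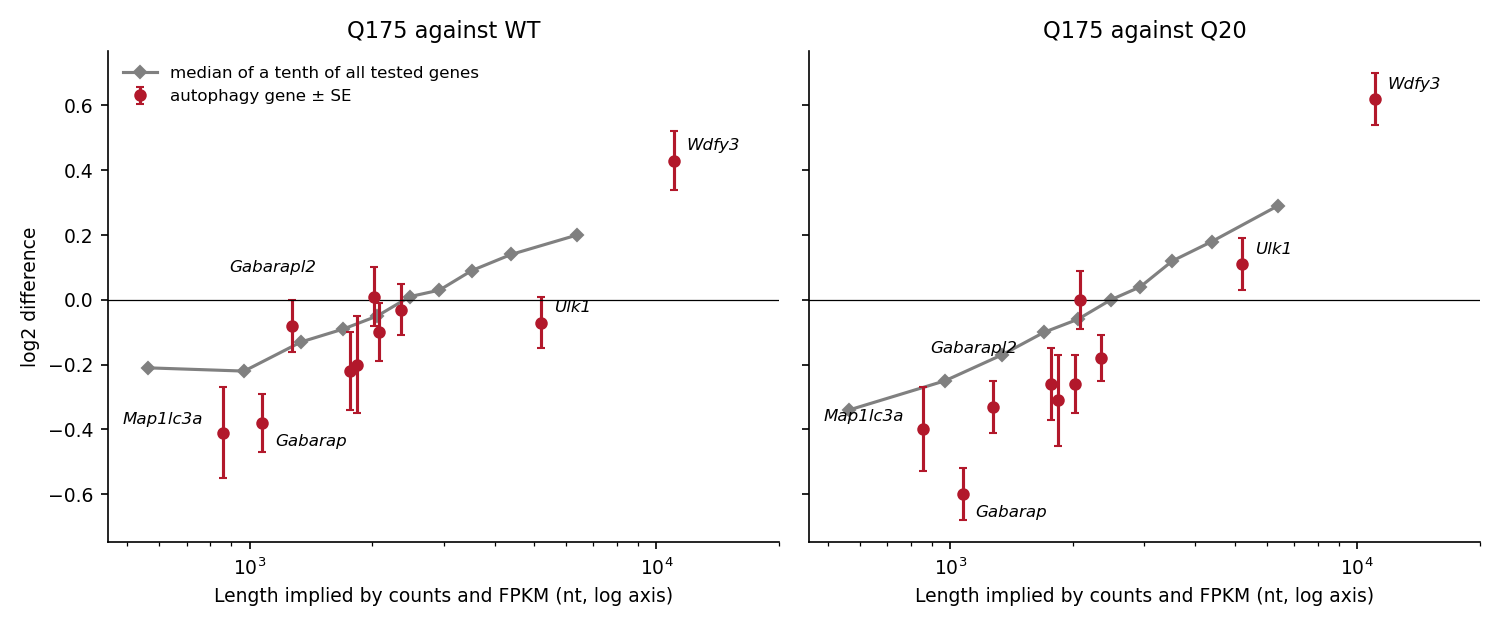
Log2 difference (vertical) against the length implied by counts and FPKM (horizontal, log axis in nt) for the 10 autophagy genes ± SE, with grey diamonds for the medians of all tested genes in 10 length bins. The medians run from -0.21 to 0.20 in Q175 against WT and from -0.34 to 0.29 in Q175 against Q20, and Wdfy3 and Gabarap lie beyond them at either end.

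Against Q20, the comparison that selected Wdfy3, the values are a description. Over all tested genes 14.2% were called there, and 5 of the 10 genes passed the same threshold, from which nothing is read. Wdfy3 had 55.9 to 67.1 CPM in Q20, with a median of 60.6, and 80.3 to 104.5 CPM in Q175, with a median of 94.5. The difference was 0.62 ± 0.08. Gabarap had 299.9 to 399.1 CPM in Q20 and differed by -0.60 ± 0.08. Both genes separated the groups completely, and so did Gabarapl2 (-0.33 ± 0.08) and Sqstm1 (-0.26 ± 0.09), which were lower in all 8 Q175 libraries. Of all tested genes 1.19% were fully higher and 3.56% fully lower in this comparison. Map1lc3a (-0.40 ± 0.13) was the fifth, with 72.5 to 186.5 CPM in Q20, and overlapped. Map1lc3b differed by -0.31, Gabarapl1 by -0.26, Atg5 by -0.18, Ulk1 by 0.11 and Becn1 by -0.00. After removal of the length trend by bin medians Wdfy3 stood at 0.25 ± 0.06 and Gabarap at -0.38 ± 0.08, and after the least-squares version at 0.11 ± 0.11 and -0.62 ± 0.18.

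**Figure D3:**
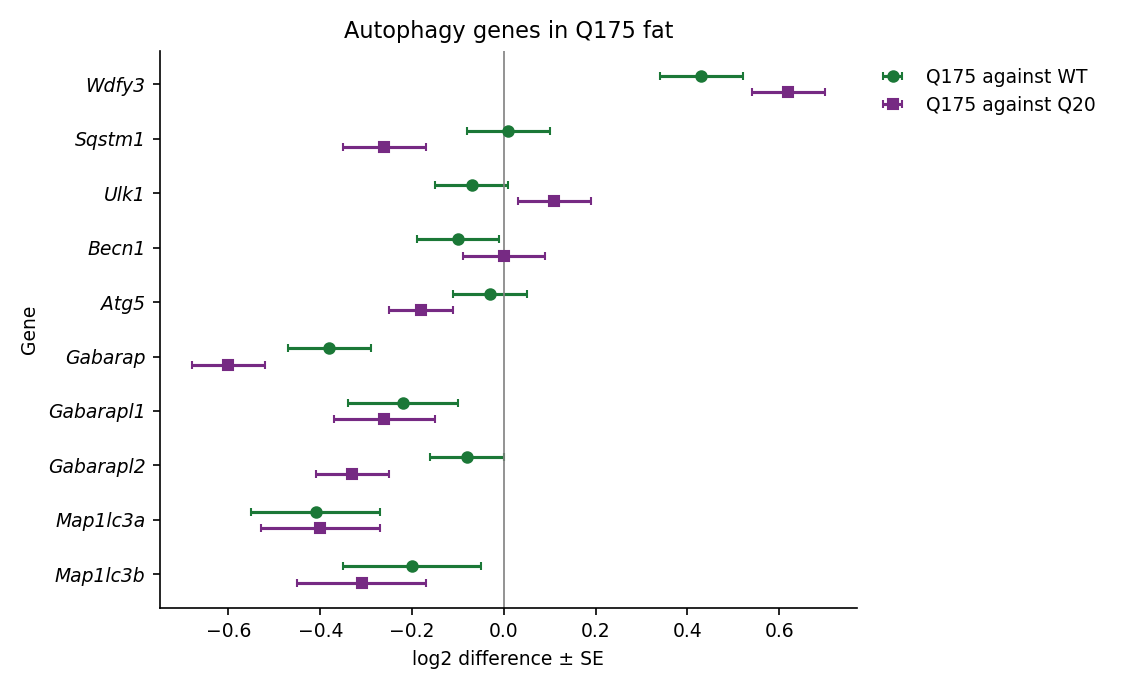
Log2 difference ± SE (horizontal axis) of each autophagy gene (vertical axis) in Q175 against WT (circles) and in Q175 against Q20 (squares), which share the Q175 libraries. Wdfy3 lies at 0.43 and 0.62 and Gabarap at -0.38 and -0.60, while Sqstm1 lies at 0.01 against WT and -0.26 against Q20.

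Q20 and WT, the 2 control genotypes, were then compared with each other. None of the 10 genes was called in Q20 against WT by edgeR, beside 0.753% of all tested genes, and 5 had an unadjusted p under 0.05. Sqstm1 stood at 0.28 ± 0.09 (adjusted p = 0.185), with 304.4 ± 32.3 CPM in Q20. Gabarapl2 stood at 0.26 ± 0.08, Gabarap at 0.22 ± 0.09, Wdfy3 at -0.18 ± 0.09 and Ulk1 at -0.18 ± 0.08. DESeq2 called 2 of them, Sqstm1 (adjusted p = 0.0398) and Gabarapl2 (adjusted p = 0.0418). Leaving out WT male replicate 1 gave edgeR 1 call, Sqstm1, with adjusted p = 0.0340. The small RNA gene Rn7s1, which follows the library number ranges, had 1.31 ± 1.28 CPM in WT, 0.812 ± 0.476 in Q175 and 232.2 ± 488.3 in Q20, and the part of the number range in these differences was not tested.

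The longer repeats between Q20 and Q175 left the genes near their Q20 levels. In Q80, Q111 and Q140 against Q20 none of the 10 genes was called by edgeR or by DESeq2, none had an unadjusted p under 0.05, and 0% of all tested genes were called. In Q92, where 6.11% of all tested genes were called, none of the 10 was called and none had an unadjusted p under 0.05. Voom with quality weights called 2 of them there. Wdfy3 differed from Q20 by -0.03 to 0.01 over these 4 lines and Gabarap by -0.09 to -0.02, each with an SE of 0.08. In order of mean level, Wdfy3 had 59.8 ± 10.9 CPM in Q140, 60.6 ± 3.18 in Q92, 61.2 ± 4.35 in Q20, 61.5 ± 7.01 in Q80 and 61.9 ± 5.78 in Q111. Neighbours in that order did not differ beyond their spread, WT followed at 69.9 ± 7.87 and Q175 was the highest at 93.9 ± 9.42. Mean levels of Gabarap were 335.9 ± 37.7, 314.0 ± 29.3, 317.4 ± 43.5, 328.5 ± 28.2 and 330.9 ± 59.5 CPM from Q20 to Q140, which overlapped, then 286.6 ± 17.5 in WT and 221.4 ± 9.09 in Q175, the lowest. Without the 2 Q140 libraries that contradict their labels, Wdfy3 stood at -0.10 ± 0.09 and Gabarap at 0.03 ± 0.09 in Q140 against Q20.

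The slope over CAG length, on which Wdfy3 was selected, is likewise a description, and so is the slope in males, on which Gabarap was selected. Over both sexes the slope was 0.31 ± 0.05 log2 per 100 repeats for Wdfy3 and -0.29 ± 0.05 for Gabarap. There 3 of the 10 genes passed the threshold beside 8.32% of all tested genes. The third was Gabarapl2, at -0.15 ± 0.05. In females the slope was 0.32 for Wdfy3 and -0.21 for Gabarap, with 1 of the 10 past the threshold beside 2.39% of all genes. In males it was 0.29 and -0.37, with 2 of the 10 beside 0.355%. Nothing is read from these counts, because they hold genes that were selected on these slopes. No gene differed in slope between the sexes by edgeR, 0% of those tested, 1 of the 10 had an unadjusted p under 0.05, and voom called 2. With Q175 left out, over Q20 to Q140, the slope was -0.02 ± 0.07 for Wdfy3 and -0.01 ± 0.07 for Gabarap. None of the 10 was called there, none had an unadjusted p under 0.05, and 0.00474% of all tested genes were called.

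Within the Atg8 family, levels per length could be compared on the FPKM scale. Gabarap made up 39.7 ± 2.74% of the summed FPKM of the 5 genes over all 55 libraries, Map1lc3b 19.1 ± 2.95%, Map1lc3a 18.4 ± 2.97%, Gabarapl1 14.7 ± 1.74% and Gabarapl2 8.11 ± 1.20%. The shares of Map1lc3a and Map1lc3b did not differ beyond their spread. The share of Gabarap was 36.0 ± 2.08% in Q175, 38.7 ± 1.54% in WT and 40.4 ± 2.95% in Q20, and that of Gabarapl1 16.8, 15.5 and 14.5%. The summed FPKM was 617.5 ± 20.7 in Q175 (n = 8), 684.2 ± 55.6 in WT (n = 7) and 729.9 ± 129.3 in Q20 (n = 8), so among these groups Q175 had the lowest mean and the narrowest spread. Of the other genes on this scale, Wdfy3 had 9.53 ± 1.44 FPKM in Q175 and 5.62 ± 1.09 in WT.

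**Figure D4:**
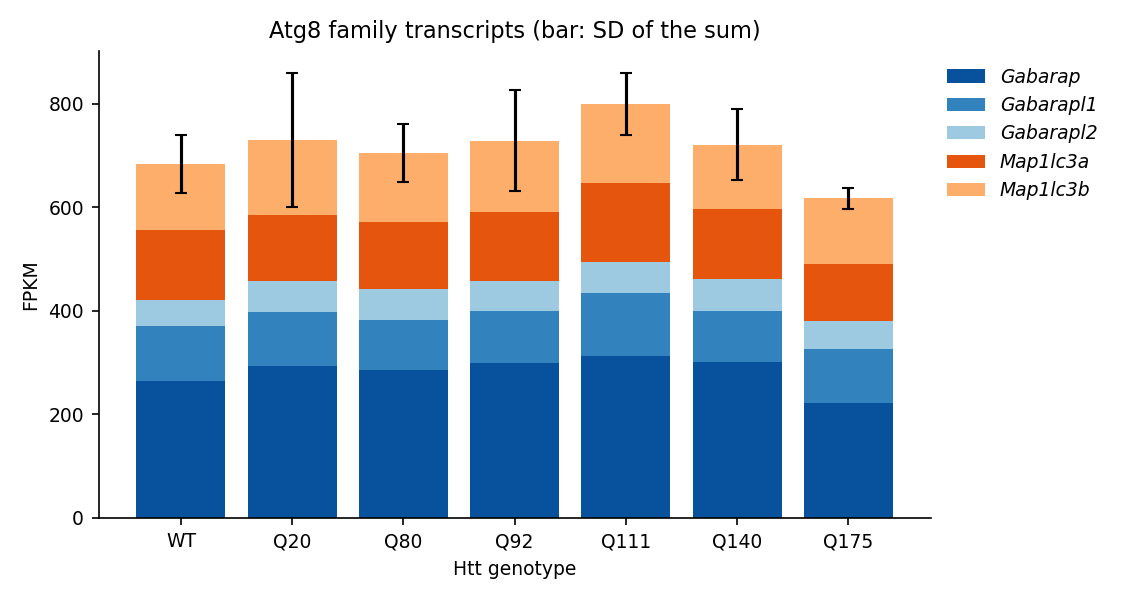
Mean FPKM (vertical axis, from 0) of the 5 Atg8 family genes, stacked for each Htt genotype, with bars for the SD of the sum over 7 WT or 8 other libraries. Gabarap is the widest band in every genotype, and the sum is lowest in Q175, at 617.5.

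Males and females differed in 4 of the 10 genes, and the 2 LC3 genes went opposite ways. Map1lc3a was higher in males and Map1lc3b lower. Becn1 was higher in males and Ulk1 lower. These are 2 genes in each direction, beside 46.3% of all tested genes called between the sexes, 27.9% higher and 18.3% lower in males, so the count of calls was not above that of all genes. The labelled sexes were used, and leaving out the 2 Q140 libraries kept all 4 calls. With the least-squares length trend removed 4 of the 10 were called, but 0 higher and 4 lower in males. Map1lc3a and Becn1 were thus not called higher there, in a fit that moved the median of all tested genes to -0.09. With the trend removed by bin medians 2 were higher and 2 lower.

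Map1lc3a had 101.9 ± 15.5 CPM in 27 female libraries, from 76.6 to 138.4 with a median of 100.7, and 124.8 ± 32.2 CPM in 28 male libraries, from 72.5 to 186.5 with a median of 124.9. The ranges overlapped, and the difference averaged over genotypes was 0.28 ± 0.07 (adjusted p = 0.00150, edgeR). Map1lc3b had 271.6 ± 28.5 CPM in females, from 194.4 to 329.2 with a median of 271.0, and 228.0 ± 55.5 CPM in males, from 102.3 to 320.8 with a median of 241.4, a difference of -0.26 ± 0.08 (adjusted p = 0.00588). As a share of the Atg8 sum, Map1lc3a made up 16.5% in females and 20.2% in males, and Map1lc3b 20.9% and 17.3%. Becn1 differed by 0.16 ± 0.05 (adjusted p = 0.00499), with 83.2 ± 3.56 CPM in females and 93.6 ± 17.3 in males. Ulk1 differed by -0.14 ± 0.04 (adjusted p = 0.00689), with 55.4 ± 7.43 and 50.4 ± 6.42 CPM. Wdfy3 (0.06 ± 0.04) and Gabarap (-0.02 ± 0.04) were not called.

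Of the 10 epididymis and testis markers 5 were called higher in males, and their sum reached 100 CPM in the 14 libraries named earlier. No library labelled female summed above 16.4 CPM, so all 14 were among the 28 male libraries and included every Q175 male. Without those libraries, in an additive design, Map1lc3b stood at -0.04 ± 0.06 (adjusted p = 0.603) and Ulk1 at -0.14 ± 0.07 (adjusted p = 0.142), both no longer called. The Ulk1 difference was -0.14 in both fits, and its SE grew from 0.04 to 0.07. Map1lc3a stood at 0.46 ± 0.09 (adjusted p = 0.000120) and Becn1 at 0.08 ± 0.03 (adjusted p = 0.0209). The highest Becn1 library, Q140 male replicate 1 at 160.9 CPM, was also the lowest Q140 male for Map1lc3b, at 130.1 CPM. On FPKM with 0.1 added Ulk1 was -0.01 ± 0.05 and not called, and Atg5 and Gabarap turned to 0.11 each, both called.

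**Figure D5:**
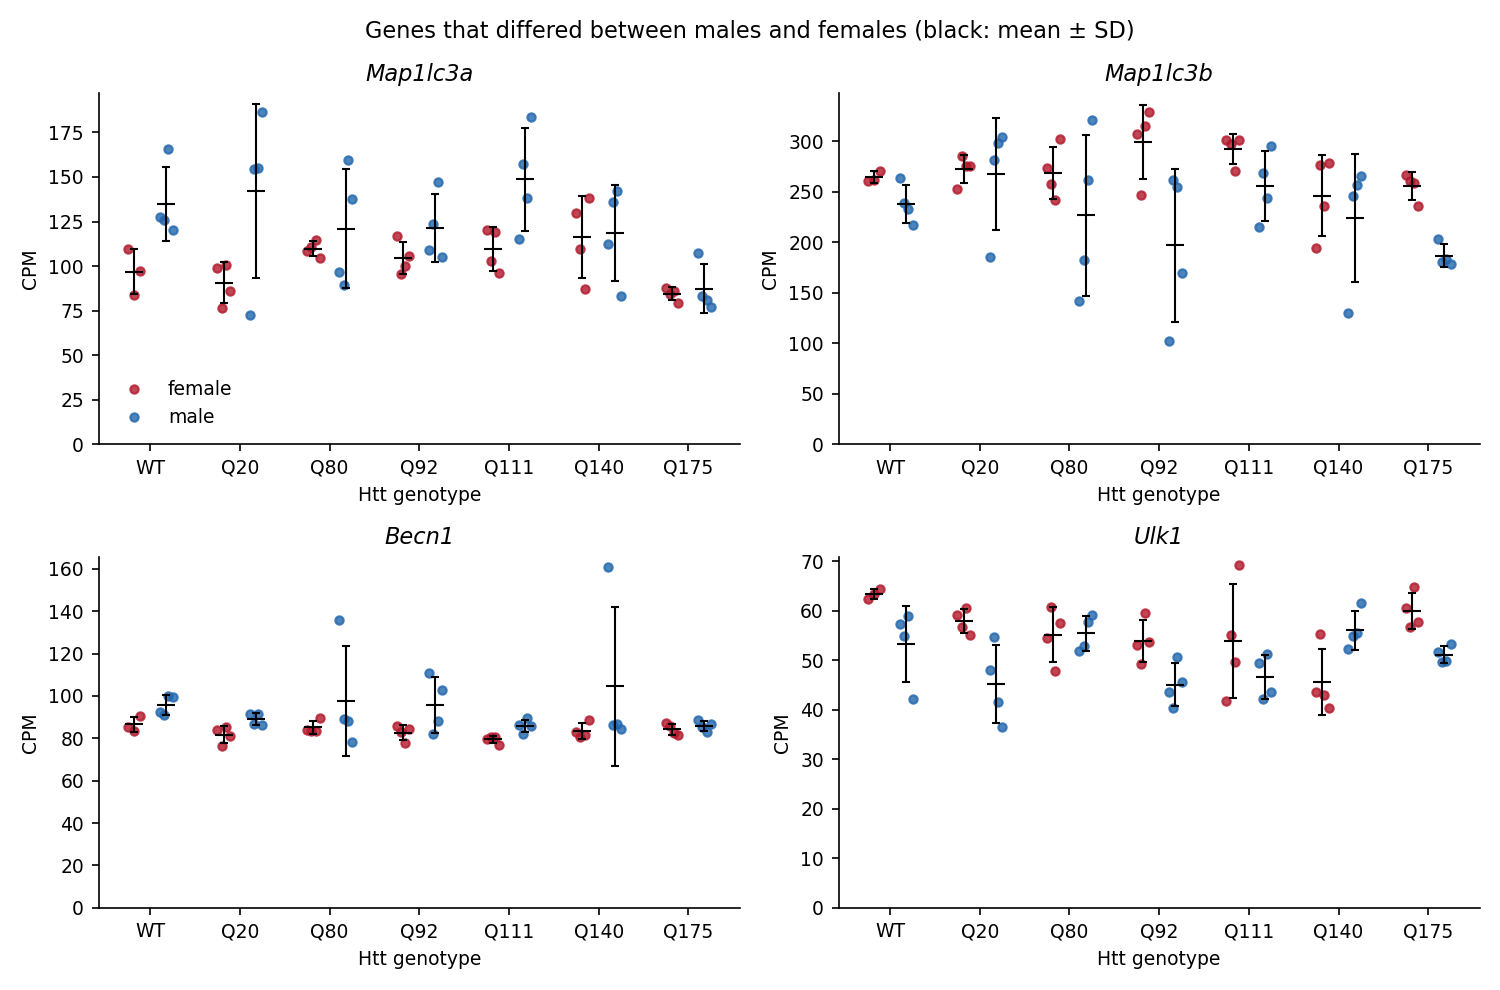
The 4 genes that differed between the sexes, in CPM (vertical axes, from 0) for each library by Htt genotype and sex, with black marks for the mean ± SD of each group. Map1lc3b reaches down to 102.3 CPM and Becn1 up to 160.9 CPM in single male libraries.

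Beyond the 10 genes, 102 other autophagy genes were grouped by role. In Q175 against WT 3 of them rose and 10 fell, with a median of -0.06. Over all tested genes 3.34% were called higher and 7.10% lower, so the list was called about as often as genes in general, and its named members are given as values only. Of 10 conjugation genes 4 fell and none rose. These were Atg4d (-0.38) and Atg4b (-0.15), which encode proteases that trim Atg8 proteins, Atg12 (-0.32), whose product is joined to Atg5, and Atg16l1 (-0.28), which places that complex on the membrane. In the Ulk1 complex Atg101 fell by 0.49 (17.8 CPM in WT and 12.0 in Q175), and in membrane supply Wdr45, a lipid-binding propeller protein gene, fell by 0.44. Nrbf2 of the Becn1 complex fell by 0.36, the proton pump accessory subunit gene Atp6ap1 by 0.24, the TORC1 subunit gene Mlst8 by 0.23 and Keap1, which holds the stress factor Nrf2, by 0.18. Of 16 cargo receptors Ccpg1, a receptor for endoplasmic reticulum, rose by 0.32 and Fundc1, a mitochondrial one, by 0.25. Among 8 BEACH domain genes, the family of Wdfy3, its relative Wdfy4 rose by 0.76 while the list had a median of 0.23. None of 12 genes of fusion with the lysosome was called.

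The balance of these 102 genes depended on the scale. With the length trend removed by bin medians 2 rose and 9 fell, and by least squares 0 and 5. Without the epididymis-rich libraries, and so without Q175 males, 5 rose and 3 fell. On FPKM with 0.1 added 14 rose and none fell, with a median of 0.16 beside 0.17 for all genes. None was called in females by edgeR, and 3 fell in males. In Q20 against WT, and in Q80, Q111 and Q140 against Q20, none was called. In Q92, where 6.11% of all tested genes were called, 2 of the 102 rose, Atg9a (0.45) and Retreg1 (1.85), and Fundc1 fell by 0.28. Between the sexes 18 of the 102 were higher and 26 lower in males, beside 27.9% and 18.3% of all tested genes. Among them were Trp53inp2 at 0.70, Wipi1 at -0.62 and Atg4a at 1.25. Atg4a had 69.9 ± 121.1 CPM in males, an SD above the mean, and 22.1 ± 2.57 in females. The balance of the 102 was 15 higher and 12 lower without the epididymis-rich libraries and 7 and 42 with the least-squares length trend removed. It was 15 and 30 with the bin medians removed, and 40 and 12 on FPKM with 0.1 added.

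Among the genes whose group means followed Wdfy3 most closely were the chromatin genes Kat6a (r = 0.97) and Kmt2a (r = 0.951), the RNA-binding gene Prrc2c (r = 0.947) and Parp4 (r = 0.939). Their implied lengths were 9080, 16448, 6824 and 5983 nt. Those closest to Gabarap were the gamma-secretase subunit gene Psenen (r = 0.98), Sap18b (r = 0.974), Yif1a (r = 0.966), the ubiquitin-like gene Nedd8 (r = 0.964) and Dpm2 (r = 0.958), at 648, 780, 1493, 600 and 899 nt. These are Pearson values of log2 CPM over 14 group means among 11683 genes, and the means share libraries, depth and the trend over length. Between Wdfy3 and Gabarap themselves r was -0.902, and between Gabarap and Gabarapl2 it was 0.85. Wdfy3 and Gabarap were selected on differences that these same means hold, in opposite directions, so nothing is read from these r values.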

How the data were processed

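The authors deposited expected counts (estimated read counts per gene, not scaled) and FPKM, normalized by the authors for gene length and depth, for 43432 Ensembl genes in 55 libraries, per the file headers. Of nonzero counts 33.7% were not whole, and counts were rounded. Per the labels' protocols RNA came from frozen tissue by the Qiagen miRNeasy kit and went into Illumina libraries from an enriched fraction, and CASAVA 1.8.2 is listed in the submitters' processing notes. Aligner, counter, build, annotation and strand setting: not given in the sources used here. Hence genes that overlap or share sequence may exchange reads. GENCODE M21 gave symbols for 42462 of the identifiers, and the sequences.

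Counts were fitted with edgeR 4.0.16 (R 4.3.3): TMM, filterByExpr, 1 mean per group of genotype and sex, robust quasi-likelihood, 16 comparisons. The fitting code was tested on simulated data. The 10 genes, the 9 pathway lists, the marker lists (adipocyte, macrophage, progenitor, endothelial, mesothelial, epididymis and testis, female tract, skeletal muscle, pancreas) and the comparisons were chosen with earlier results of these data known. Named were all 10 genes, up to 3 called genes per pathway list by smallest p, the 5 genes most like Wdfy3 and the 5 most like Gabarap over group means, among genes with a mean of at least 5 CPM, Htt and the sex checks. Of these, 1 gene named by this rule is not reported here. The fourth conjugation gene, Atg4b, was named after its value was seen. The alternatives comprised DESeq2 1.42.0 and limma 3.58.1 on voom values or on log2 FPKM with 0.1 or 1 added. Others were scaling by RLE or by upper quartiles, filtering at a mean of 1 CPM or not at all, and an additive design. The replicate number or the L code entered as a factor. Further fits used a spline over length, left out structural RNAs or the 2 Q140 libraries, took a threshold of 0.01, or left out each library in turn. Added after seeing the data were a length correction by bin medians, because the spline left the median of all genes away from 0, and a fit without 14 libraries with at least 100 CPM of epididymis and testis markers. FPKM tests are on the log2 scale with the value added, which understates changes of low genes. No endothelial, mesothelial, female tract, skeletal muscle or pancreas marker was called in Q175 against WT. Without overlap, the endothelial sum was higher in Q175 females (758.6 to 850.1 CPM against 647.5 to 741.2). So was the sum of the female tract list in Q175 males (16.2 to 54.4 against 2.58 to 11.8). Of that list Pax8 had a mean of 30.7 CPM in all males and 1.43 in all females, so the list does not mark female tissue here. No reads with molecular identifiers were named, so depth bounds counting error only.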

Additional observations from a re-analysis of the deposited data

Results flagged for a closer look

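In 9 of 130 sets of gene, genotype and sex with 4 libraries, 1 library stood far from the other 3 by Dixon's test, where chance gives about 1 in 20. Wdfy3 was high in Q80 male replicate 2, at 78.0 CPM against 55.8 to 58.4 in the others, and in Q111 female replicate 2, at 61.1 CPM against 56.6 to 57.1. Becn1 was high in Q140 male replicate 1, at 160.9 CPM against 84.2 to 86.8, and in Q80 female replicate 4, at 89.7 CPM against 83.5 to 83.9. Map1lc3b was low in the same Q140 male replicate 1, at 130.1 CPM against 245.9 to 265.2, and in Q111 female replicate 3, at 270.7 CPM against 297.1 to 301.1. Gabarap was high in Q140 female replicate 4, at 463.9 CPM against 292.9 to 313.1. Gabarapl1 was low in Q20 male replicate 1, at 145.1 CPM against 225.1 to 231.3. Map1lc3a was high in WT male replicate 3, at 165.7 CPM against 120.1 to 127.4. No cause was tested.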

How the results depend on the processing

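Counts below are of the 10 genes called. For Q175 against Q20 and the slopes they hold genes selected on those values, so they describe the processing and nothing else is read from them. In Q175 against WT (3) voom gave 6 and each length correction 0. That comparison gave 2, without Map1lc3a, with RLE or upper-quartile scaling, no filter, either FPKM setting, the replicate block or the L code. It also gave 2 with structural RNAs, the 2 Q140 libraries or the epididymis-high libraries left out, or a threshold of 0.01. In Q175 against WT, DESeq2 gave 1 and voom 2 in females (0). In males (1) DESeq2 gave 3 and voom 6. Upper-quartile scaling, no filter, the replicate block, the L code, either length correction, structural RNAs left out and a threshold of 0.01 gave 0 there. In Q175 against Q20 (5) upper-quartile scaling, no filter, FPKM with 0.1 or 1 added, structural RNAs left out, the epididymis-high libraries left out and a threshold of 0.01 gave 3, voom 9, the spline over length 0 and its bin medians 2. In Q20 against WT (0) DESeq2 gave 2, voom 4 and the epididymis-high libraries left out 1, and in Q92 (0) voom gave 2. The slope (3) gave 8 by voom, 0 with the spline and 1 with bin medians. In females (1) it gave 2 by DESeq2, 4 by voom and 0 with either length correction or at 0.01. In males (2) it gave 8 by voom and 0 with the L code or either length correction. The slope in males gave 1 with no filter, FPKM with 0.1 or 1 added, the replicate block, structural RNAs left out, the 2 Q140 libraries left out or 0.01. The slopes of the sexes (0) gave 2 by voom. Male against female (4) gave 8 on FPKM with 0.1 or 1 added and 2 with the L code or without the epididymis-high libraries. With the spline over length its count stayed at 4, with 0 higher and 4 lower.

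Leaving out each library in turn gave 2 to 3 in Q175 against WT, 0 to 2 in males, 3 to 6 in Q175 against Q20, 0 to 1 in Q20 against WT, 2 to 4 for the slope, 0 to 2 for it in females, 0 to 3 in males and 4 to 4 between the sexes. The largest single effects on a slope were Q20 female replicate 2 in females (0 without it) and Q175 male replicate 3 or Q20 male replicate 4 in males (0 without either). In Q175 against WT in males the Wdfy3 call ended in 7 of 8 such fits, with adjusted p up to 0.273. Wdfy3 and Gabarap were called in Q175 against WT in all 15, at 0.40 to 0.50 and -0.39 to -0.33.

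Called values or directions that turned were Wdfy3 in Q175 against WT in males (-0.07 with the spline over length), and between the sexes Atg5 (0.11 and 0.10 on FPKM with 0.1 and 1 added), Gabarap (0.11 on both), Becn1 (-0.03 with the spline) and Gabarapl2 (-0.21 with the spline). The cause was not tested. Replicate numbers came from the labels alone and were not taken as pairs in the main fit. Of 47 pairs with the same number 15 correlated over 0.1, from -0.462 to 0.644. Libraries with different numbers were not compared, so these values cannot decide whether the numbers pair libraries. With the replicate block Map1lc3a lost its call in Q175 against WT (adjusted p = 0.0533). Comparisons within a sex rest on 3 or 4 libraries a group.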
